A study of Homo sapiens with 4 samples.

Results

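The 10 genes described here, TPX2, NUSAP1, PRC1, ASPM, HMMR, CKAP5, DLGAP5, SPAG5, KNSTRN and NUMA1, encode proteins that bind spindle microtubules or their ends and are not motors. They were listed by name, with earlier results of these data known, and all 10 were found by Ensembl identifier among the 28729 genes of the deposited table. The libraries came from TU-177, an established human laryngeal squamous cell carcinoma (LSCC) line. There were 2 groups with n = 2 libraries each. By the labels, the NC cells received a lentivirus with a negative control shRNA, and the SKA3-KD cells received a lentivirus with an shRNA (a short hairpin RNA that silences its target) against SKA3. Both groups were selected with puromycin, so viral transduction and selection are shared by NC and SKA3-KD. The study's methods describe lentiviral shRNA in TU-177 cells, and also siRNA and Cas9 with guide RNAs for SKA3 knockdown. The agent used for these libraries therefore rests on the labels alone. The labels do not name the hairpin, and nothing in them says that the replicates were separate cultures, so the p-values measure only the spread between these libraries.

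As background, the mitotic spindle is built from microtubules that grow from the poles, are nucleated around chromosomes and are held in bundles by associated proteins. TPX2, NUSAP1, DLGAP5 and NUMA1 are held by importins and released near chromosomes by the GTPase Ran, and HMMR acts beside TPX2 in spindle assembly. ASPM and NUMA1 gather microtubule minus ends at the poles, CKAP5 adds tubulin at plus ends, SPAG5 and KNSTRN work together at attached kinetochores, and PRC1 crosslinks antiparallel microtubules of the midzone. Many of these genes are transcribed mostly in G2 and mitosis, under the DREAM and FOXM1-MYBL2 complexes. SKA3 itself is a subunit of the SKA complex, which couples kinetochores to microtubule ends.

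SKA3, the targeted gene, had 9.40 and 9.64 FPKM in the NC libraries, and 3.77 and 4.12 FPKM remained after knockdown (limma, log2 fold change -1.09, adjusted p = 0.00806), so the libraries followed their labels. FPKM is a fragment count divided by exon length and by library size. Of its complex partners, SKA2 rose by 0.34 on the log2 scale (limma, adjusted p = 0.0329) and SKA1 was at 0.28 (adjusted p = 0.222). Recovered library sizes ran from 9015056 to 11966130 reads, and each of the 10 spindle genes stood on 507 to 5627 reads in every library. Of the squamous markers, KRT17, SFN, PERP and ITGB4 were above 10 FPKM in every library, whereas KRT5, KRT14 and KRT6A did not exceed 0.103 FPKM and TP63 lay between 0.348 and 0.580 FPKM. These defining squamous markers were thus at or near 0 in both groups. Some of the others moved with the knockdown by limma, as PERP fell by 1.77 on the log2 scale (adjusted p = 0.0065), KRT17 fell by 0.53 (adjusted p = 0.0396) and ITGB4 rose by 1.08 (adjusted p = 0.0140), while SFN was at -0.08 (adjusted p = 0.537). Summed over 12 genes, the squamous markers had 279.6 and 292 FPKM in NC and 215.5 and 240.7 FPKM in SKA3-KD. Within this sum PERP had 72.7 and 66.1 FPKM in NC and 20.5 and 18.6 FPKM in SKA3-KD. ITGB4 went the other way, from 12.5 and 15.1 FPKM in NC to 28.0 and 32.7 FPKM in SKA3-KD. Leukocyte markers (5 genes) summed to at most 1.38 FPKM and endothelial markers (3 genes) to at most 0.397 FPKM. Fibroblast markers (7 genes) summed to 15.4 and 15.8 FPKM in NC and to 8.90 and 9.61 FPKM in SKA3-KD, with DCN at 8.39 and 8.36 against 2.48 and 2.35 FPKM. Without DCN the sums were 7.01 and 7.43 FPKM in NC and 6.42 and 7.26 FPKM in SKA3-KD. The part of the squamous and fibroblast markers in the results was not tested.

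The start regions of the spindle genes are shown first, since many of them share a short sequence. RefSeq promoters, from 250 bases before the gene start to 50 after it on GRCh38.p14, were matched for 9 of the 10 genes by symbol. Only 1 start was used per gene, and any other start was not searched. The windows were searched on both strands for the CHR (TTTGAA or TTCGAA), an element of G2/M promoters bound by DREAM and MYBL2 complexes, for the CCAAT box bound by NF-Y, and for an E2F-like site (TTTGGCGC or TTTCGCGC). A CHR match was present in 7 of 9 windows, those of NUSAP1, PRC1, ASPM, HMMR, CKAP5, DLGAP5 and SPAG5, against 16.6% of all 27305 promoters of this length and 10.8% of the 8608 promoters of genes tested here. CCAAT was present in 7 of 9 windows against 35.7% of all promoters and 37.3% of those of genes tested. The E2F-like site was present in 1 window (NUSAP1) against 1.18% and 2.04%. A match describes letters only and is not a bound site. PRC1 had its CHR 20 bases and its CCAAT box 53 bases upstream of the start, both on the coding strand. HMMR had 2 CHR copies in direct repeat, at 28 and 22 bases upstream, and 5 CCAAT matches. Of these, 2 lay on opposite strands and overlapped in the letters CCAATTGG. In the windows searched, KNSTRN had none of the 3 motifs and NUMA1 had only a CCAAT box, 44 bases upstream.

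A few of these regions are printed from position -180 relative to the start, over 210 bases, 5′ to 3′ on the coding strand, with every motif match in capitals. They show 2 genes that rose and carry the CHR in their windows (PRC1 and HMMR) and 1 that rose without it there (KNSTRN). NUSAP1 carries it and did not pass the test. The PRC1 region is chr15:90994506-90994715 on the minus strand, HMMR is chr5:163460452-163460661 on the plus strand, KNSTRN is chr15:40382541-40382750 on the plus strand and NUSAP1 is chr15:41332701-41332910 on the plus strand.
PRC1: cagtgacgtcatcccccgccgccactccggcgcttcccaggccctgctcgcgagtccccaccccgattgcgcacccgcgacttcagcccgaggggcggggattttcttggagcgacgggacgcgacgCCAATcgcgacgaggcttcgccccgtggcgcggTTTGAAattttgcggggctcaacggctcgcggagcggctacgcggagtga
HMMR: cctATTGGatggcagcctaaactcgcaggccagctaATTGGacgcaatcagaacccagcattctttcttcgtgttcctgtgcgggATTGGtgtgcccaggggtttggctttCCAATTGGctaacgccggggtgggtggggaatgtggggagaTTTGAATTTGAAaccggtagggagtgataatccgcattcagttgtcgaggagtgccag
KNSTRN: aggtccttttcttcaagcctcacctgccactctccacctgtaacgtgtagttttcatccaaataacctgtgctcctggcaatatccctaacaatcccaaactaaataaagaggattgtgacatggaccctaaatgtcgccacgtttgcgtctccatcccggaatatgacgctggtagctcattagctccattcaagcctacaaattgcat
NUSAP1: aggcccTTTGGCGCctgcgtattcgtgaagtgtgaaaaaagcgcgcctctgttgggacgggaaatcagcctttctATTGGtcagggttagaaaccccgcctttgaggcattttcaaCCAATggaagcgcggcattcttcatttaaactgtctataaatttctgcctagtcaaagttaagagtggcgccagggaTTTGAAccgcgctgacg

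**Figure D1:**
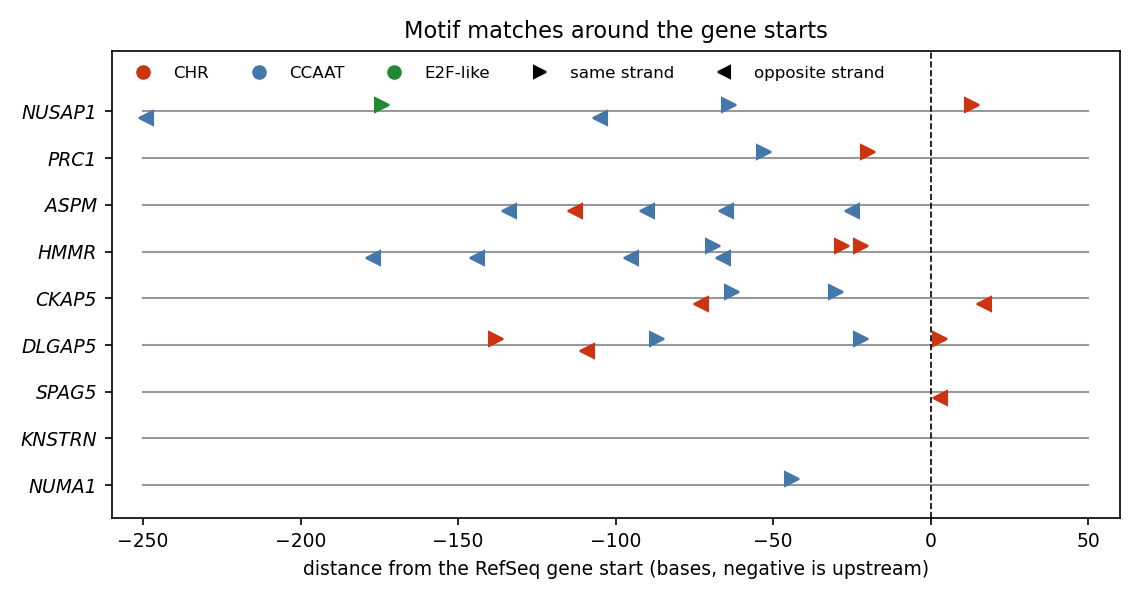
Positions of motif matches from 250 bases before to 50 bases after the RefSeq start of 9 spindle genes. Each triangle is the first base of a match on the coding strand (pointing right) or its opposite (pointing left). CHR matches are present in 7 of 9 rows and none is present for KNSTRN or NUMA1.

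Messenger RNA of most of the spindle genes was higher in SKA3-KD than in NC. TPX2, HMMR, KNSTRN, PRC1, CKAP5 and SPAG5 rose past an adjusted p-value of 0.05, with mean FPKM 1.29 to 1.52 times that of NC, and 0 of the 10 genes fell by limma, by limma voom on recovered reads or at an unadjusted p under 0.05. The background share was 6.16% of the 12645 genes tested called higher and 6.11% called lower. This share depends on expression level. Over the 7303 genes averaging 5 FPKM or more, which include all 10 spindle genes, 993 (13.6%) were called higher and 887 lower. In that setting 7 of the 10 spindle genes were called higher. ASPM and DLGAP5 were also higher in both SKA3-KD libraries than in both NC libraries but did not pass, and NUSAP1 and NUMA1 overlapped between the groups. In total 8 of 10 genes had both SKA3-KD libraries above both NC libraries and 0 had them below, against 32.3% and 29.2% of all genes tested. The median log2 fold change over the 10 genes was 0.36, beside 0.01 over all genes tested. The test was limma on log2(FPKM + 1), with the Benjamini-Hochberg adjustment taken over every gene averaging 1 FPKM or more. With 2 libraries a group an exact two-sided permutation test reaches 0.333 at the lowest, and the calls rest on the spread that limma shares across genes. None of the 10 genes stayed past the threshold without the filter on low FPKM or when any 1 of the 4 libraries was left out, while the direction of the 8 higher genes did not change in these settings. A gene that did not pass is not shown to be unchanged.

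**Figure D2:**
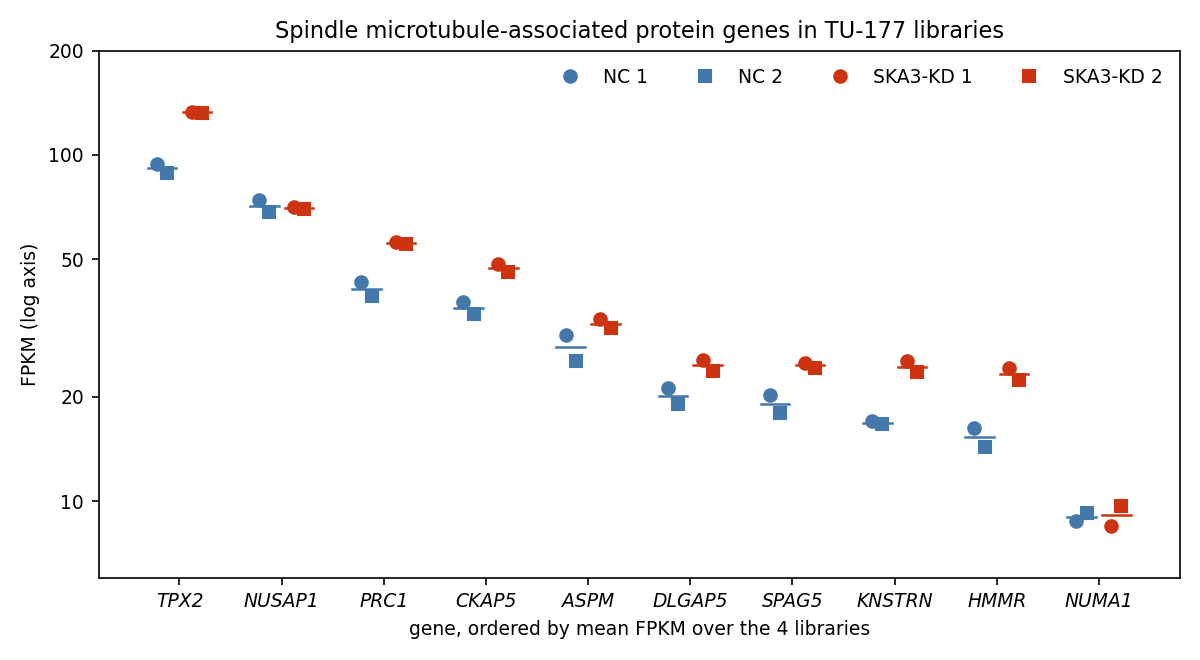
FPKM of the 10 spindle genes on a log axis in each NC (blue) and SKA3-KD (red) library, with circles for replicate 1, squares for replicate 2 and a line at each group mean. Red points lie above blue ones for 8 genes, and the groups overlap for NUSAP1 and NUMA1.

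TPX2, HMMR, DLGAP5 and NUSAP1 act in assembly around chromosomes. TPX2 (ENSG00000088325; chromosome 20 of GRCh38, 31739271 to 31801805, plus strand) activates the kinase Aurora A and promotes branching nucleation. The NC libraries held 94.5 and 88.5 FPKM of it, and the SKA3-KD libraries 133.2 and 132.4 FPKM. The SKA3-KD libraries were nearly equal and both lay above NC. Limma put the log2 difference at 0.53 with a standard error of 0.06 (adjusted p = 0.0138), from 91.5 ± 4.22 to 132.8 ± 0.577 FPKM (SD, n = 2 each).

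HMMR (ENSG00000072571; chromosome 5, 163460203 to 163491945, plus strand), also called RHAMM, carries TPX2 to spindle poles and is better known as a hyaluronan receptor. It was at 16.3 and 14.3 FPKM in NC and at 24.2 and 22.3 FPKM in SKA3-KD. This was the largest rise of the 10 genes, 0.58 on the log2 scale with a standard error of 0.09 (limma, adjusted p = 0.0237), and it ranked 350 among the 12645 genes tested when these were ordered from the largest rise down. HMMR was 15.3 ± 1.40 FPKM in NC and 23.2 ± 1.34 in SKA3-KD (SD, n = 2 each). The antisense gene HMMR-AS1 overlaps 113 bases of its exons and was listed at 0 in both NC libraries and at 0.411 and 0.266 FPKM in SKA3-KD. Strand use in the counting is not given in the sources used here.

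DLGAP5 (ENSG00000126787; chromosome 14, 55148112 to 55191678, minus strand), known as HURP, stabilizes kinetochore fibres near chromosomes. It had 21.2 and 19.0 FPKM in NC and 25.6 and 23.8 FPKM in SKA3-KD. The groups did not overlap, but the log2 fold change of 0.28 (standard error 0.08, adjusted p = 0.0825, limma) did not pass the threshold. DLGAP5 passed with limma voom on reads recovered from the FPKM values (adjusted p = 0.0174).

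NUSAP1 (ENSG00000137804; chromosome 15, 41332694 to 41381050, plus strand), which bundles and anchors microtubules near chromosomes, had 73.9 and 68.5 FPKM in NC and 70.5 and 69.9 FPKM in SKA3-KD. Both SKA3-KD values lay between the NC values. Its log2 fold change was -0.02 with a 95% interval from -0.18 to 0.14 (limma). Set against it within each library, TPX2 was 1.28 and 1.29 times NUSAP1 in NC and 1.89 times in both SKA3-KD libraries, a ratio chosen after the values were seen. The CHR printed above in NUSAP1 is shared with genes that rose, and any part of the motif in the changes was not tested.

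**Figure D3:**
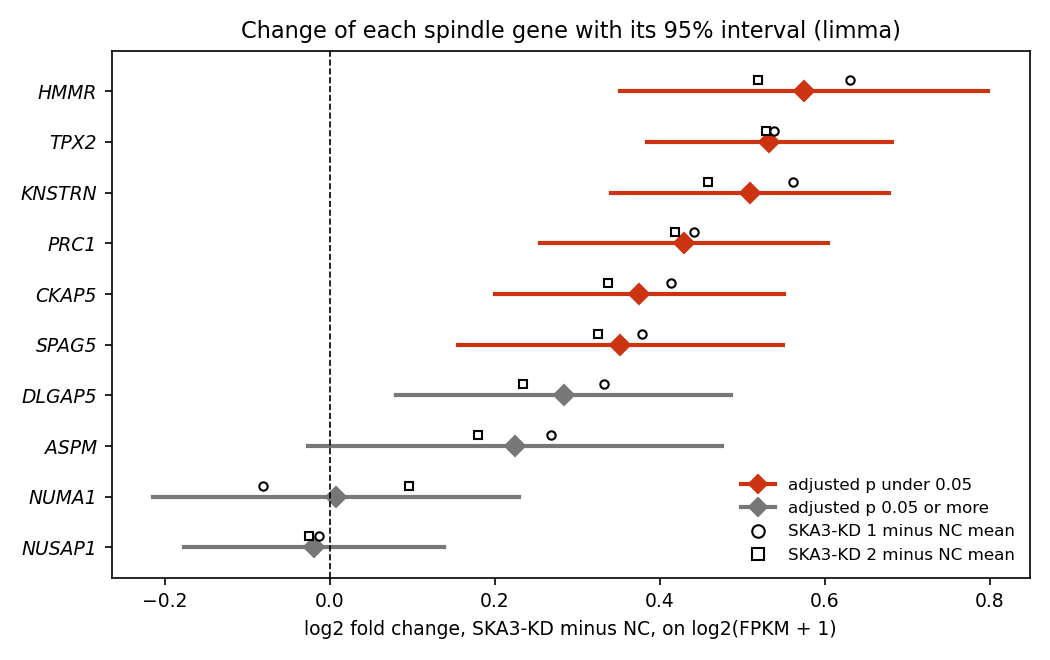
Log2 fold change of each spindle gene (diamond) with its 95% interval from limma (line), red where the adjusted p is under 0.05. Open symbols show each SKA3-KD library against the NC mean, and both are above 0 for 8 genes, while NUMA1 has 1 on each side and NUSAP1 has both just below 0.

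Neither spindle pole gene, ASPM or NUMA1, passed the threshold by limma. ASPM (ENSG00000066279; chromosome 1, 197084128 to 197146694, minus strand), which works with katanin at microtubule minus ends and is mutated in primary microcephaly, had 30.2 and 25.4 FPKM in NC and 33.6 and 31.5 in SKA3-KD. The lowest SKA3-KD library exceeded the highest NC library by only 0.06 on the log2 scale, while the NC libraries differed by 0.24. Its log2 fold change of 0.22 had a 95% interval from -0.03 to 0.48 (adjusted p = 0.195, limma). Leaving out NC 1 gave 0.35 and leaving out NC 2 gave 0.10.

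NUMA1 (ENSG00000137497; chromosome 11, 72002864 to 72080693, minus strand), which links dynein to the poles and the cell cortex and sits in the nucleus in interphase, had 8.78 and 9.26 FPKM in NC and 8.47 and 9.70 FPKM in SKA3-KD. The SKA3-KD libraries spanned the NC range, and the log2 fold change of 0.01 had a 95% interval from -0.21 to 0.23 (limma). NUMA1 shares exon bases on the opposite strand with IL18BP (675 bases) and LRTOMT (363 bases), which were between 1.31 and 2.30 FPKM. A longer overlap, of 2760 bases, is with the antisense gene AP002490.1, which was between 0 and 0.1185 FPKM. After adjustment for base composition and length its log2 fold change was -0.11 (adjusted p = 0.276, limma).

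CKAP5 (ENSG00000175216; chromosome 11, 46743048 to 46846308, minus strand), also named ch-TOG, is a microtubule polymerase. It had 37.5 and 34.6 FPKM in NC and 48.4 and 45.8 FPKM in SKA3-KD, with no overlap. Limma put the log2 difference at 0.38 with a standard error of 0.07 (adjusted p = 0.0341). Both CHR matches of its start region lie on the opposite strand, 73 bases upstream and 17 bases downstream of the start.

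SPAG5 and KNSTRN encode astrin and kinastrin, which form a complex that accumulates at kinetochores once they are attached to both poles. KNSTRN (ENSG00000128944; chromosome 15, 40382721 to 40394246, plus strand) had 16.99 and 16.73 FPKM in NC and 25.4 and 23.5 FPKM in SKA3-KD. The NC libraries differed by only 0.02 on the log2 scale, and limma put the difference between groups at 0.51 with a standard error of 0.07 (adjusted p = 0.0182). SPAG5 (ENSG00000076382; chromosome 17, 28577565 to 28599279, minus strand) had 20.2 and 18.0 FPKM in NC and 25.1 and 24.2 FPKM in SKA3-KD. Its rise was 0.35 in log2 units with a standard error of 0.08 (limma, adjusted p = 0.0485), and the call was lost under quantile normalization (adjusted p = 0.0553). SPAG5 shares 485 exon bases with AC005726.1 on the same strand and 384 with SPAG5-AS1 on the opposite strand. These genes were between 0.153 and 0.937 FPKM. KNSTRN was at 0.841 and 0.928 times the FPKM of SPAG5 in NC and at 1.01 and 0.974 times in SKA3-KD.

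PRC1 (ENSG00000198901; chromosome 15, 90966038 to 90995629, minus strand), the midzone crosslinker, had 43.0 and 39.1 FPKM in NC and 56.0 and 55.1 FPKM in SKA3-KD. Limma put the log2 difference at 0.43 with a standard error of 0.07 (adjusted p = 0.0258), from 41.0 ± 2.81 to 55.6 ± 0.639 FPKM (SD, n = 2 each). The antisense PRC1-AS1, which overlaps 406 bases of its exons, was at 0.511 to 1.09 FPKM. A read-through model of the same strand, not analysed here, covers 57.6% of PRC1 exon bases, and another covers 62.2% of those of NUSAP1, so both values carry an uncertainty whose size was not tested.

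The spindle genes also moved together within the groups, by less than between them. NC 2 was below NC 1 in 9 of 10 genes and SKA3-KD 2 below SKA3-KD 1 in 9 of 10, NUMA1 being the exception in both, beside 52.4% and 50.6% of all genes tested. The median difference was -0.125 on the log2 scale within NC and -0.065 within SKA3-KD, beside -0.009 and -0.003 over all genes tested. Measured from the NC mean, the median was 0.40 for the first SKA3-KD library and 0.33 for the second. For each of the 8 genes without overlap except ASPM, the difference between groups exceeded both differences within groups. Genes that mark G2 and mitosis moved in the same way within the groups, with medians of -0.08 in NC and -0.08 in SKA3-KD over 22 genes, and their part in the result was not tested. In bulk RNA a larger share of cells in G2 or mitosis and more RNA per cell cannot be told apart.

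**Figure D4:**
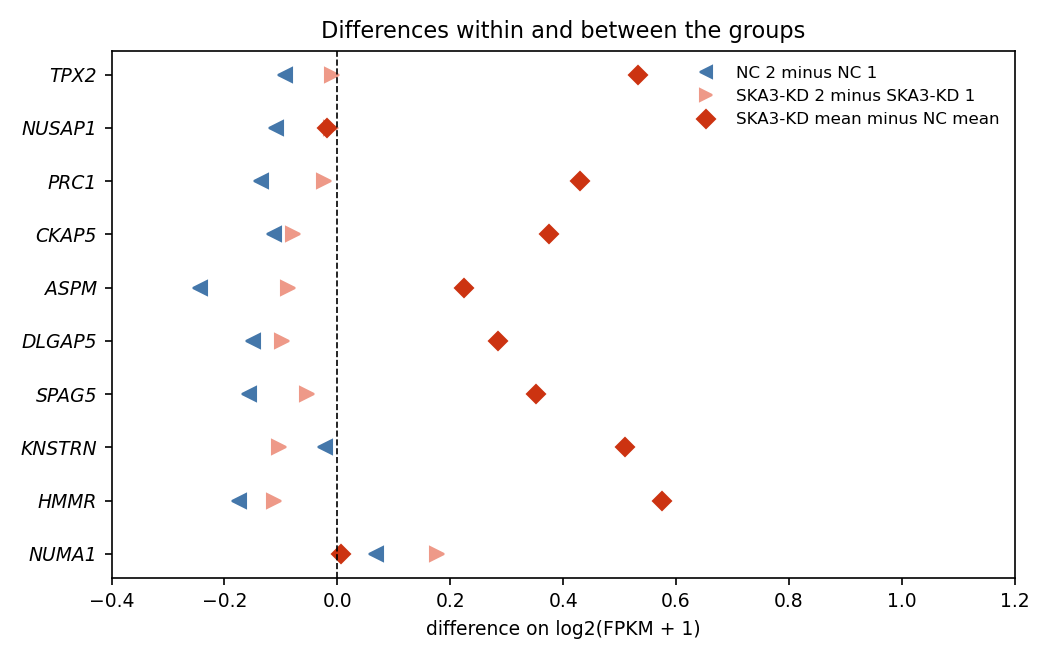
Differences on log2(FPKM + 1) for each spindle gene between the NC libraries (blue), between the SKA3-KD libraries (pale red) and between the group means (red diamonds). Within-group differences are below 0 for every gene except NUMA1 and reach -0.24 (ASPM in NC), while the difference between groups reaches 0.58 (HMMR).

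The levels of the 10 genes covered a wide range. The summed FPKM was 363 and 333 in NC and 450 and 438 in SKA3-KD, and TPX2 made up 26.0% and 26.5% of it in NC and 29.6% and 30.2% in SKA3-KD. The share of NUSAP1 was 20.4% and 20.5% in NC and 15.7% and 15.9% in SKA3-KD. By mean FPKM over the 4 libraries the order was TPX2 (112), NUSAP1 (70.7), PRC1 (48.3), CKAP5 (41.6), ASPM (30.2), DLGAP5 (22.4), SPAG5 (21.9), KNSTRN (20.6), HMMR (19.3) and NUMA1 (9.05). The ranges over the libraries overlapped between PRC1 and CKAP5 and between each pair of neighbours from ASPM down to HMMR, but these ranges pool NC and SKA3-KD. Within the libraries PRC1 exceeded CKAP5, ASPM exceeded DLGAP5 and KNSTRN exceeded HMMR in 4 of 4, whereas DLGAP5 exceeded SPAG5 and SPAG5 exceeded KNSTRN in 3 of 4. The length behind each FPKM was near that of all merged exons of a gene, and for NUMA1 it was 15212 bases against 7343 in its longest transcript in GENCODE 29. In KNSTRN these lengths were 3654 and 1899 bases. On the longest transcript, an alternative chosen after seeing the data, the mean became 18.8 FPKM for NUMA1 and 39.7 for KNSTRN, which moved KNSTRN from place 8 to place 5 and left TPX2, NUSAP1, PRC1 and CKAP5 in the first places and NUMA1 last.

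Partners of the 10 proteins were next compared. Of 22 genes for binding partners and co-workers, 8 were higher past the threshold and 0 lower, with a median log2 fold change of 0.20, beside the 6.16% and 6.11% of all genes tested. In this list, for SKA2 and in the lists that follow, 0 genes stayed past the threshold when any 1 library was left out, and without the filter on low FPKM the partners called higher numbered 2. AURKA, the Aurora A kinase that TPX2 activates, was at 50.8 and 49.0 FPKM in NC and at 74.1 and 72.2 in SKA3-KD. Its rise was 0.54 in log2 units with a standard error of 0.06 (limma, adjusted p = 0.0127), close to the 0.53 of TPX2. TACC3 and GTSE1, which join CKAP5 on kinetochore fibres with clathrin, rose by 0.47 and 0.53 (adjusted p = 0.0165 and 0.0196, limma), whereas the clathrin heavy chain CLTC was not past the threshold (0.12, adjusted p = 0.303). KIF18A, the kinesin that dampens chromosome movements, rose by 0.55 (adjusted p = 0.0209, limma).

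Among the partners of ASPM, which itself did not pass, some rose and others did not. WDR62 and CIT (citron kinase) rose by 0.47 and 0.37 on the log2 scale (adjusted p = 0.0418 and 0.0383, limma), and KATNA1 was at 0.08 (adjusted p = 0.437). CALM3, a calmodulin gene, rose by 0.50 (adjusted p = 0.0140, limma), and CALM2 (-0.12, adjusted p = 0.410) did not pass. Genes of the cortical complex that holds NUMA1 did not pass either. By limma GPSM2 differed by 0.18 (adjusted p = 0.131) and GNAI2 by 0.18 (adjusted p = 0.0896), and GNAI1 and GNAI3 overlapped between the groups.

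In the Ran and importin pathway, which frees TPX2, NUSAP1, DLGAP5 and NUMA1 for assembly, 4 of 10 genes were higher past the threshold and 0 lower. Their median was 0.19, and 6.16% and 6.11% of all genes tested were called higher and lower. With a mean FPKM of at least 5, the Ran and importin genes called higher numbered 5, beside 13.6% of all genes in that setting. RANGAP1, the GTPase activating protein of Ran, had 26.7 and 27.7 FPKM in NC and 40.7 and 41.0 in SKA3-KD, a rise of 0.57 (adjusted p = 0.0119, limma). NUP98, RCC1 (the exchange factor of Ran) and RANBP1 rose by 0.44, 0.34 and 0.33 (adjusted p = 0.0191, 0.0265 and 0.0410, limma). RAN itself was at 0.15 (adjusted p = 0.141), and KPNA2 and KPNB1, the importins that hold TPX2, were at 0.06 and 0.23 (adjusted p = 0.461 and 0.0823).

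Other non-motor proteins of the spindle and midzone were less uniform. Of 28 genes, 5 were higher and 1 lower past the threshold, with a median of 0.12, beside 6.16% and 6.11% of all genes tested. With a mean FPKM of at least 5, 7 of this list were higher and 0 lower, and 13.6% of all genes in that setting were higher. SPDL1, an adaptor of dynein at kinetochores, PSRC1, CEP55, RASSF1 and MAP4 rose by 0.54, 0.46, 0.40, 0.37 and 0.28 on the log2 scale (adjusted p between 0.0150 and 0.0393, limma). MAPRE2, which encodes the plus end protein EB2, fell by 0.64 (adjusted p = 0.0231, limma), from 4.64 and 4.29 FPKM in NC to 2.65 and 2.36 in SKA3-KD. Of the 7 subunits tested of augmin, which branches microtubules with TPX2, 0 passed in either direction, and HAUS1 (-0.30, adjusted p = 0.0601) and HAUS2 (-0.34, adjusted p = 0.0536) lay lower in both SKA3-KD libraries. At an unadjusted p under 0.05 0 augmin subunits were higher and 2 lower, beside 16.2% and 15.1% of all genes tested, and limma voom on recovered reads called 0 higher and 1 lower.

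The phase markers placed the spindle genes beside the rest of the cell cycle. Of 22 G2/M genes, 11 were higher past the threshold and 0 lower, with a median log2 fold change of 0.34, close to the 0.36 of the spindle genes. The number higher was 2 without the filter on low FPKM, 6 without the mean-variance trend and 17 after adjustment for base composition and length. PLK1, BIRC5, CCNB1 and CDC20 rose by 0.76, 0.71, 0.64 and 0.54 (adjusted p = 0.0103, 0.0212, 0.0150 and 0.0114, limma), while CDK1 (-0.04, adjusted p = 0.808) and MKI67 (0.05, adjusted p = 0.602) did not pass. Of 21 G1/S genes, 2 (RRM2 and MCM6) were higher and 1 (CCNE1) lower past the threshold, with a median of -0.02. Over all genes tested the shares were 6.16% higher and 6.11% lower. The number of G1/S genes lower was 0 without the filter or without the trend and 2 under median-of-ratios scaling. It was 3 after adjustment for base composition and length or with limma voom on recovered reads. The lists were described by their counts and medians only.

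**Figure D5:**
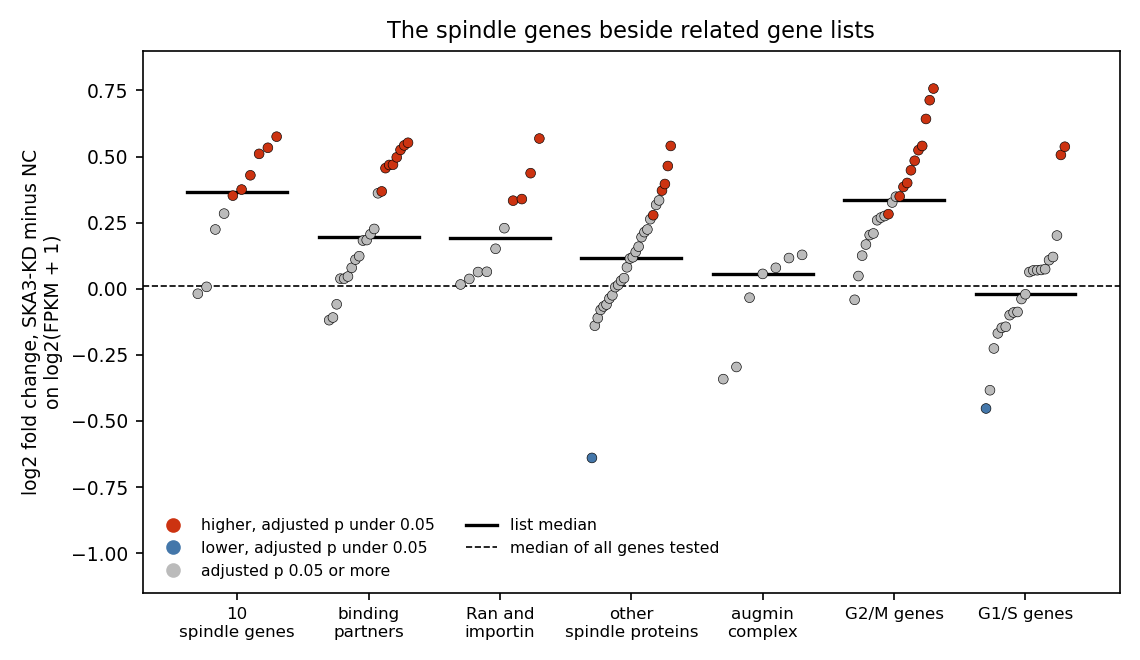
Log2 fold change (SKA3-KD minus NC, on log2(FPKM + 1)) of every tested gene of 7 lists, red where higher and blue where lower at an adjusted p under 0.05. Bars mark the list medians, 0.36 for the 10 spindle genes and 0.34 for G2/M genes against -0.02 for G1/S genes, and the dashed line is the median of all genes tested (0.01).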

How the data were processed

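The 4 RNA-seq libraries (NC 1, NC 2, SKA3-KD 1, SKA3-KD 2) were mapped to groups from the sample labels. The authors deposited FPKM values per gene. The submitters' processing notes name Bowtie2 2.2.8, HISAT2, StringTie 1.3.1, Cuffdiff 2.1.1 and hg19, without their roles. Symbols, merged exon lengths and GRCh38 positions came from GENCODE 29 by Ensembl identifier (27199 of 28729 genes), and no hg19 coordinate was converted. FPKM values stepped in whole reads over a gene length, which gave library sizes. Reads were whole (tolerance 0.01) at the GENCODE length for 7756 genes tested and at another length, solved from the values, for 4863 (99.8% in all), among them PRC1, HMMR, CKAP5, SPAG5 and NUMA1. Replicates differed beyond sampling noise (chi-square per degree of freedom 3.69 in NC and 3.64 in SKA3-KD).

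SKA3-KD was compared with NC by limma 3.58.1 in R 4.3.3 (eBayes with trend) on log2(FPKM + 1), over the 12645 genes averaging 1 FPKM or more. This scale shrinks the changes of weakly expressed genes. P-values were two-sided and adjusted by Benjamini-Hochberg over all genes tested, with a threshold of 0.05. Intervals are 95%. The spindle genes and lists were chosen with earlier results of these data known. Besides the 10 genes and SKA3, the text names up to 6 called genes of each list with the largest changes and direct partners. INSC and UHRF1 are not analysed here. Some genes of the lists are counted but not reported by name. Alternatives were another pseudocount (0.1), filters, scalings, variance models, a replicate block, limma voom on recovered reads, adjustment for base composition and exon length by loess (span 0.5), other thresholds and each library left out. The steps were tested on simulated data. Python 3.11.15 was used for the remaining steps.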

Additional observations from a re-analysis of the deposited data

How the results depend on the processing

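With all 4 libraries, the 8 spindle genes without overlap stayed higher under the 10 alternative fits, with medians over the 10 genes from 0.34 to 0.38, and none of the 10 was lower past the threshold under any alternative. Augmin, with 0 subunits lower, had 2 lower with a mean FPKM of at least 5 and 1 under median-of-ratios scaling, robust eBayes, the GC and length correction or limma voom. Of the 10 genes, 8 were higher with limma voom on recovered reads and 5 under quantile normalization. This count was 7 at an adjusted p under 0.1, 2 without the mean-variance trend and 0 without the filter on low FPKM or with a fold change of at least 1.5 on log2(FPKM + 1), a scale on which HMMR, at 1.52 times the NC mean FPKM, falls short. Without the filter the Ran and importin genes called higher numbered 1 in place of 4 and the other spindle genes 0 in place of 5, and without the trend 2 and 1. Without the filter 26504 genes were tested, and all genes higher and lower numbered 48 and 81 in place of 779 and 772 (1705 and 1523 with limma voom, 1353 and 1218 after the GC and length correction, 312 and 381 without the trend). Without the filter TPX2 (0.53), PRC1 (0.43), HMMR (0.58), CKAP5 (0.38), SPAG5 (0.35) and KNSTRN (0.51) kept their log2 fold changes and were not past the threshold, and without the trend the same held for PRC1 (0.43), HMMR (0.58), CKAP5 (0.38) and SPAG5 (0.35). SPAG5 was also not past it under quantile normalization (0.34). DLGAP5 passed with a mean FPKM of at least 5 (0.28), after the GC and length correction (0.34) and with limma voom (0.29), and ASPM passed with limma voom (0.23).

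Leaving out 1 library in turn called 0 of the 10 genes higher each time. All genes higher then numbered 0 without NC 1, 0 without NC 2, 13 without SKA3-KD 1 and 46 without SKA3-KD 2, and the group left with 1 library was assumed to vary like the other. Log2 fold changes then ran from 0.49 to 0.58 for TPX2, 0.36 to 0.50 for PRC1, 0.49 to 0.66 for HMMR, 0.32 to 0.43 for CKAP5, 0.27 to 0.43 for SPAG5, 0.46 to 0.56 for KNSTRN, 0.10 to 0.35 for ASPM, 0.21 to 0.36 for DLGAP5 and -1.14 to -1.04 for SKA3, with a median over the 10 genes from 0.30 to 0.43.

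The replicate numbers mark no stated shared culture, and deviations of same-numbered libraries correlated at r = 0.0973 across genes, which are not independent replicates. With the replicate number as a block, 7 of the 10 genes were higher, DLGAP5 (0.28) being added, and all genes higher and lower numbered 1002 and 965.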
